A study of Mus musculus with 6 samples.

Results

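The transcripts described here come from 8 mouse genes of bone formation, Runx2, Sp7, Alpl, Phex, Ibsp, Dmp1, Bglap and Bglap2, among the 32285 genes counted. They were followed as unique molecular identifiers (UMIs, each standing for 1 captured RNA molecule) in single-nucleus RNA sequencing of photothrombotic (PT) lesions of the mouse cortex. In this model light activates a dye in the vessels below the skull and makes a small sterile infarct, which fills with fibroblasts. The genes were picked by name with earlier results of these libraries known, so their levels and differences are given as a description and no test is attached to them. They were read in osteoblast-like nuclei, in fibroblast-like nuclei and in both together, which is called stroma here.

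There were 6 libraries, 1 for each combination of group and time, at 7 and 21 days post-injury (dpi). Ctrl mice were WT with no treatment listed. ADWA11 mice were WT and had received ADWA11, an antibody that blocks integrin αvβ8 and was given from the day of injury and then weekly. This integrin is a cell surface receptor that frees TGFβ from its latent form. Tgfbr2-cKO mice carried Col1a2(creER); Tgfbr2(flox), in which tamoxifen activates a Cre recombinase made under the Col1a2 promoter, so that cells expressing that collagen gene lose the type 2 TGFβ receptor. All 6 groups had the PT injury. The study's methods give a range of young to adult ages that holds where no other is stated, and none is stated for these mice. They also state that tamoxifen was given to controls of inducible strains where that applied. The exact ages, the floxed exon and whether these WT Ctrl mice had tamoxifen are not given in the sources used here. Each library pooled tissue of 1 male and 1 female mouse. With 1 library per group no difference below could be tested against a spread between replicate libraries. Values of the single mice, told apart by their transcripts, are given for some results, and every 95% interval covers counting error only.

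Osteoblasts build bone by secreting collagen and then loading it with mineral. Runx2 and Sp7 (osterix) encode transcription factors needed for the lineage, Runx2 acting first. Alpl encodes the phosphatase that frees phosphate for mineral, and Phex a membrane peptidase of phosphate balance that marks mature osteoblasts and osteocytes. Ibsp and Dmp1 encode acidic matrix proteins that bind mineral, Dmp1 being typical of osteocytes. Bglap and Bglap2 both encode osteocalcin, the late secreted product of the osteoblast. The healthy cortex holds no bone, but the dissection included a step that separated the lesions from the skullcap. The question these values address is whether bone transcripts in the lesion libraries sit in a bone cell or in scar fibroblasts, and whether they move with TGFβ signalling.

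Osteocalcin lies on chromosome 3 of mm10, Bglap at chr3:88383501-88384464 and Bglap2 at chr3:88377736-88378699, both on the minus strand. The copies are so alike that 60.4% of the 90-base windows of the longest Bglap transcript also occur in that of Bglap2, so reads of one may be lost or counted for the other, and the split between them is uncertain. Runx2 spans chr17:44495987-44814797 on the minus strand, Sp7 chr15:102356606-102367182 (minus), Alpl chr4:137741733-137796384 (minus) and Phex chrX:157162075-157415312 (minus). Ibsp (chr5:104299171-104311469) and Dmp1 (chr5:104202613-104214102) are neighbours on the plus strand of chromosome 5. The antisense gene Runx2os1 lies inside Runx2, with 142 UMIs in osteoblast-like and 1000 in fibroblast-like nuclei against 38690 and 56269 for Runx2.

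The promoters of Bglap and Alpl are shown because these genes parted ways in the fibroblasts described below. Each sequence is the 250 bases before the start of transcription in RefSeq (GRCm38.p6), read 5′ to 3′ along the gene. Capitals mark the core Runx motif ACCACA, searched on both strands (TGTGGT on the other).
Bglap, chr3:88384467-88384716, minus strand: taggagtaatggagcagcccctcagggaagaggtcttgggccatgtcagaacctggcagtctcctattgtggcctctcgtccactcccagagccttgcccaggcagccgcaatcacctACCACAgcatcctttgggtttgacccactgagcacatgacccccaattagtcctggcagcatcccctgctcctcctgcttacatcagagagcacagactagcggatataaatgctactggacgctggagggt
Alpl, chr4:137796385-137796634, minus strand: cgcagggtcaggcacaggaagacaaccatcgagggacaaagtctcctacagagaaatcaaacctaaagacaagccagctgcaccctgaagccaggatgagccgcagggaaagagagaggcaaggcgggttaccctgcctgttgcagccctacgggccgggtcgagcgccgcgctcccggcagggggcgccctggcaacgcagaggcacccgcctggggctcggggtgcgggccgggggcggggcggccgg
The Bglap window holds the motif 132 bases before the start, and neither listed Alpl window holds it. Among the 6 members matched, the motif was also present 80 bases before the start of Runx2 and 164 bases before the second listed start of Dmp1, and absent from the windows of Ibsp and Phex. It occurred in 14% of all 32851 promoter windows. The windows of Bglap2 and Sp7 are not shown.

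The libraries held 67360 barcodes and 544427353 UMIs, from 64798965 to 140310354 per library, with medians of 4601.5 to 8222.5 UMIs a nucleus. After filters on low quality and doublets, 61331 nuclei were kept, of which 13113 were stromal. Clusters were built with the members and the other osteogenic genes of the lists used here, 73 in all, left out, and they were named from marker genes that exclude the members. A cluster of 1213 nuclei raised 11 of 14 osteoblast markers, among them Ifitm5, Pth1r, Omd and Dlx5, and is called osteoblast-like. It also raised 4 markers of myofibroblasts, the contractile scar fibroblasts, where the sub-cluster named myofibroblast-like raised 5. The other 11900 stromal nuclei are called fibroblast-like. Stroma leaves out unnamed cluster 3, 4466 nuclei with a median of 1629 UMIs that raised 6 fibroblast and 5 dural markers but also myeloid and mural ones, of which 2538 came from the Ctrl 21 dpi library. The Tgfbr2-cKO 7 dpi library stands apart, as 5937 of its 10587 nuclei were neuron-like and only 304 fibroblast-like. Of the barcode sequences, 553 occurred in more than 1 library, and 17 osteoblast-like nuclei carried such a barcode.

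Of the UMIs in kept nuclei, most of those of the matrix genes came from the osteoblast-like nuclei, although these made up only 1.98% of nuclei kept. They held 73.4% of Ibsp UMIs, 64.2% of Bglap2, 64% of Bglap, 53.4% of Sp7 and 51.7% of Dmp1. The other members were spread more widely, with 27% of Runx2, 27% of Alpl and 19.7% of Phex UMIs in these nuclei. For Alpl, 52.5% of UMIs lay in fibroblast-like nuclei, which were 19.4% of nuclei kept. Barcodes left out by the filters are not in these shares, and at 21 dpi they held 1059 Bglap UMIs in Ctrl and 196 in ADWA11, against 1830 and 1541 in kept nuclei.

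Osteoblast-like nuclei were found in all 6 libraries, in very unequal numbers. In the Ctrl libraries they were 209 nuclei, 2.55% (Clopper-Pearson 95% interval 2.22 to 2.92), at 7 dpi and 473 nuclei, 3.66% (3.34 to 3.99), at 21 dpi. In the ADWA11 libraries they were 155 nuclei, 1.43% (1.22 to 1.68), and 369 nuclei, 3.01% (2.71 to 3.33). In the Tgfbr2-cKO libraries they were 4 nuclei, 0.0378% (0.0103 to 0.0967), and 3 nuclei, 0.0459% (0.00946 to 0.134). Both Tgfbr2-cKO libraries lie far below the others, with no overlap of intervals. At 21 dpi this rests on the naming of sub-cluster 7, described below, which is counted as fibroblast-like. It raised 3 osteoblast markers and held 300 of the 6543 Tgfbr2-cKO nuclei and 0 Ctrl nuclei at that time. It fell short of a limit of 40% of the marker list, set after the sub-clusters had been seen. Without that limit it would be osteoblast-like, and the Tgfbr2-cKO library would not lie below the others at 21 dpi. The log2 ratio of shares to Ctrl of the same time was -6.08 (interval -7.97 to -4.70) for Tgfbr2-cKO at 7 dpi and -6.32 (-8.60 to -4.76) at 21 dpi. For ADWA11 it was -0.83 (-1.14 to -0.52) and -0.28 (-0.48 to -0.08). The comparisons at 1 time share the Ctrl library.

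The share also depended on what it was counted over and on the mouse. Among stromal nuclei at 7 dpi, osteoblast-like nuclei were 11% in Ctrl, 6.03% in ADWA11 and 1.30% in Tgfbr2-cKO. At 21 dpi these shares were 10.9%, 11.9% and 0.340%. With unnamed cluster 3 counted as stroma, an alternative chosen after seeing the data, they were 8.5%, 5.22% and 0.917% at 7 dpi and 6.86%, 9.97% and 0.267% at 21 dpi. With that cluster included, Tgfbr2-cKO at 7 dpi stood at a log2 ratio of -3.21 to Ctrl, against -3.08 without it. A looser count, of every nucleus with UMIs of 2 or more osteoblast markers, put Tgfbr2-cKO above Ctrl over all nuclei (log2 ratio 1.66 at 7 dpi, 0.041 at 21 dpi) and below it within stroma (-3.26 and -1.33). Nuclei could be given to the female or the male mouse of a library by their Xist and Y-linked transcripts, so each sex stands for 1 animal, and sex and animal cannot be told apart. In Ctrl the share was 4.51% in the female and 1.15% in the male mouse at 7 dpi, and 2.76% and 5.92% at 21 dpi. In ADWA11 it was 2.13% and 0.832% at 7 dpi, and 4.67% and 2.26% at 21 dpi. With sub-cluster 7 left fibroblast-like, all 4 Tgfbr2-cKO mice were lower than the 8 others. They stood at 0.0158% and 0.0859% (7 dpi) and 0.0359% and 0.0411% (21 dpi). Mice of the same group thus differed by more than the ADWA11 and Ctrl libraries did, while the Tgfbr2-cKO mice lay apart from both. Since the tissue of the mice was combined before nuclei were made, with 1 library per group, the amount of skull left on the tissue and a change in the cells themselves cannot be told apart in these shares.

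**Figure D1:**
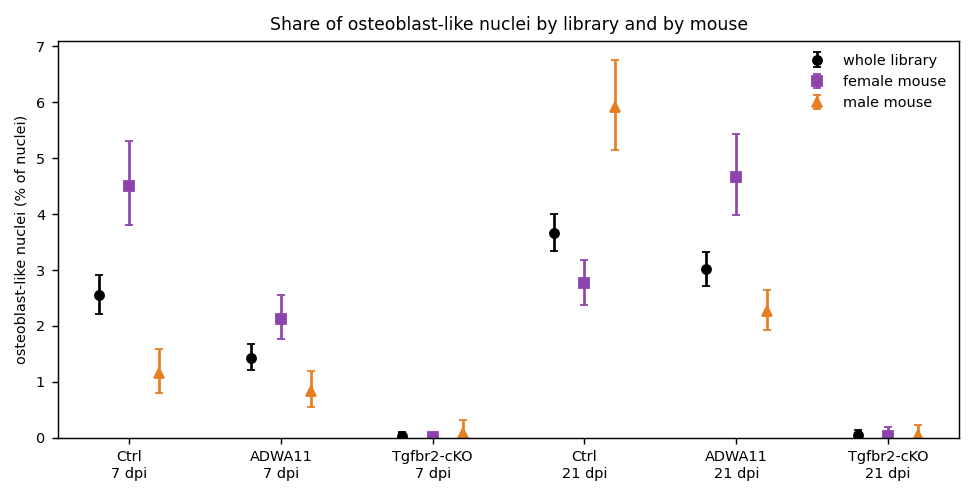
Percentage of kept nuclei that were osteoblast-like (y axis) in each of the 6 libraries, for the whole library, the female mouse and the male mouse, with Clopper-Pearson 95% intervals that cover counting error only. The Tgfbr2-cKO points stay below 0.1% in every mouse, while the Ctrl and ADWA11 mice range from 0.832% to 5.92%. Sub-cluster 7 is counted as fibroblast-like here.

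Runx2 was present in almost all osteoblast-like nuclei of every library. Its level was 3251 CPM (UMIs per 1000000 of the class, Poisson 95% interval 3167 to 3337) in Ctrl and 5167 (5043 to 5293) in ADWA11 at 7 dpi, and 3972 (3901 to 4044) and 6425 (6320 to 6532) at 21 dpi. Its UMIs were seen in 98.5% to 99.5% of nuclei of these 4 libraries. ADWA11 was the higher at both times, by 0.67 (0.62 to 0.72) and 0.69 on the log2 scale, under the 2-fold limit used to call a difference. The few Tgfbr2-cKO osteoblast-like nuclei also held it, with 86 UMIs in 4 nuclei and 110 in 3.

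Sp7 was far more uneven. It stood at 18.4 CPM (12.6 to 26.0) in Ctrl and 102 (85.6 to 121) in ADWA11 at 7 dpi, and at 78.1 (68.4 to 88.7) and 165 (149 to 183) at 21 dpi. It was detected in 10.0%, 37.4%, 23.9% and 48.8% of nuclei, in the same order. ADWA11 lay above Ctrl at both times, and the 7 dpi Ctrl library was the lowest. The log2 ratio of ADWA11 to Ctrl was 2.47 (1.91 to 3.08) at 7 dpi and 1.08 (0.84 to 1.33) at 21 dpi. At 21 dpi the excess was 2.22 in the female mice and 0.71 in the male mice. Against 7 dpi, Sp7 at 21 dpi was higher by 2.08 in Ctrl, by 0.82 in its female mice and by 4.91 in its male mice, where the 7 dpi value is 1 UMI in 35 nuclei (3.27 CPM, 0.083 to 18.2), and by 0.69 in ADWA11.

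Alpl followed the same order. It stood at 71.3 CPM (59.3 to 85.1) in Ctrl and 235.2 (209 to 263) in ADWA11 at 7 dpi, and at 124 (112 to 137) and 263 (242 to 285) at 21 dpi. It was detected in 19.1%, 49.0%, 28.5% and 48.2% of nuclei. ADWA11 exceeded Ctrl by 1.72 on the log2 scale (1.41 to 2.03) at 7 dpi. At 21 dpi the excess was 1.08 (0.89 to 1.27), with 1.44 in female and 0.87 in male mice. From 7 to 21 dpi Alpl did not pass 2-fold in either group (0.80 in Ctrl, 0.16 in ADWA11). It did in the male mice alone, by 3.85 in Ctrl (3 UMIs in 35 nuclei at 7 dpi) and 1.11 in ADWA11, and not in the female mice (0.29 and 0.20).

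Phex UMIs sat in few nuclei. It stood at 21.9 CPM (15.5 to 30.01) in Ctrl and 88.3 (72.8 to 106) in ADWA11 at 7 dpi, and at 11.9 (8.34 to 16.5) and 231 (211 to 252) at 21 dpi. It was detected in 3.83%, 11.6%, 3.59% and 9.76% of nuclei, and the 5 nuclei richest in it held 92.1%, 80.5%, 63.9% and 56.4% of its UMIs. These totals therefore describe a handful of nuclei more than the class. The log2 ratio of ADWA11 to Ctrl was 2.01 (1.47 to 2.58) at 7 dpi, with 3.54 in female and 0.02 in male mice, and 4.28 (3.79 to 4.81) at 21 dpi. Between 7 and 21 dpi the Ctrl ratio was -0.88 with all nuclei and 1.29 without the 5 richest of each library, so no direction in time holds for it.

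Ibsp stood at 26.5 CPM (19.4 to 35.3) in Ctrl and 156 (135 to 179) in ADWA11 at 7 dpi, and at 86.3 (76.2 to 97.45) and 166 (150 to 184) at 21 dpi. It was detected in 5.26%, 21.3%, 13.5% and 23.0% of nuclei. ADWA11 exceeded Ctrl by 2.56 (2.09 to 3.06) on the log2 scale at 7 dpi and by 0.95 (0.71 to 1.18) at 21 dpi. Dmp1 was rare, with 11, 9, 6 and 51 UMIs in 2, 2, 2 and 12 nuclei. Only the 21 dpi ADWA11 library stands out for it, at 23.0 CPM (17.2 to 30.3) against 1.98 (0.728 to 4.32) in Ctrl, a log2 ratio of 3.54 (2.32 to 5.05), with both mice of that library near each other at 27.1 and 27.6 CPM.

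Osteocalcin was the member that separated the libraries most. No Bglap UMI was seen in the 209 osteoblast-like nuclei of the Ctrl 7 dpi library, which allows up to 1.73 CPM (3 counts). It reached 134 CPM (114 to 155) in ADWA11 at 7 dpi, 373 (351 to 395) in Ctrl at 21 dpi and 460 (432 to 489) in ADWA11 at 21 dpi. It was detected in 16.1%, 16.7% and 36.6% of the nuclei of these 3 libraries. Bglap was thus at least 77.4-fold higher in ADWA11 than in Ctrl at 7 dpi and at least 216-fold higher in Ctrl at 21 than at 7 dpi, both against that limit. At 21 dpi ADWA11 and Ctrl differed by a log2 ratio of 0.30, with 2.04 in female and 0.12 in male mice.

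Bglap2 gave the same picture at lower counts. It stood at 2.30 CPM (4 UMIs, all in 1 nucleus) in Ctrl and 40.6 (30.3 to 53.3) in ADWA11 at 7 dpi, and at 140 (127 to 154) and 184 (166 to 203) at 21 dpi. Its log2 ratio of ADWA11 to Ctrl was 4.14 (2.70 to 6.07) at 7 dpi and 0.40 at 21 dpi. The mean over nuclei, which gives each nucleus equal weight, put the first at 2.20. In the Tgfbr2-cKO osteoblast-like nuclei, Bglap and Bglap2 together gave 1 UMI at 7 dpi and 4 at 21 dpi, too few for a ratio.

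Counted over the members, 6 of 8 were at least 2-fold higher in ADWA11 than in Ctrl osteoblast-like nuclei at 7 dpi (Bglap, Bglap2, Ibsp, Sp7, Phex and Alpl), where 6.34% of all 10295 genes with 20 or more UMIs were. At 21 dpi it was 4 of 8 (Phex, Dmp1, Sp7 and Alpl) against 4.32% of genes. From 7 to 21 dpi it was 4 of 7 in Ctrl (Bglap, Bglap2, Sp7 and Ibsp) against 10.6%, and 4 of 8 in ADWA11 (Bglap2, Bglap, Dmp1 and Phex) against 7.93%. No member was 2-fold lower in any of these 4 comparisons, where 3.83%, 4.49%, 3.8% and 4.32% of genes were. The medians of the members were 2.24, 1.01, 1.71 and 1.04 on the log2 scale, and those of all genes lay between 0.02 and 0.07. The members were chosen with such values known, so these counts describe them and support nothing further. Per mouse, the ADWA11 excess at 7 dpi was present in both sexes for Bglap (74.6 and 403 CPM in the female and male ADWA11 mouse, 0 UMIs in both Ctrl mice) and for Ibsp (118 and 380 against 17.8 and 26.2 CPM). These values rest on few nuclei. The Bglap UMIs were 76 in 6 of 114 female nuclei and 71 in 15 of 28 male nuclei of ADWA11. The Ibsp value of the male Ctrl mouse was 8 UMIs in 1 of 35 nuclei. From 7 to 21 dpi in ADWA11 the female mice alone passed 2-fold for osteocalcin, with 2.5 for Bglap and 2.88 for Bglap2, against 0.40 and 0.68 in the male mice.

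**Figure D2:**
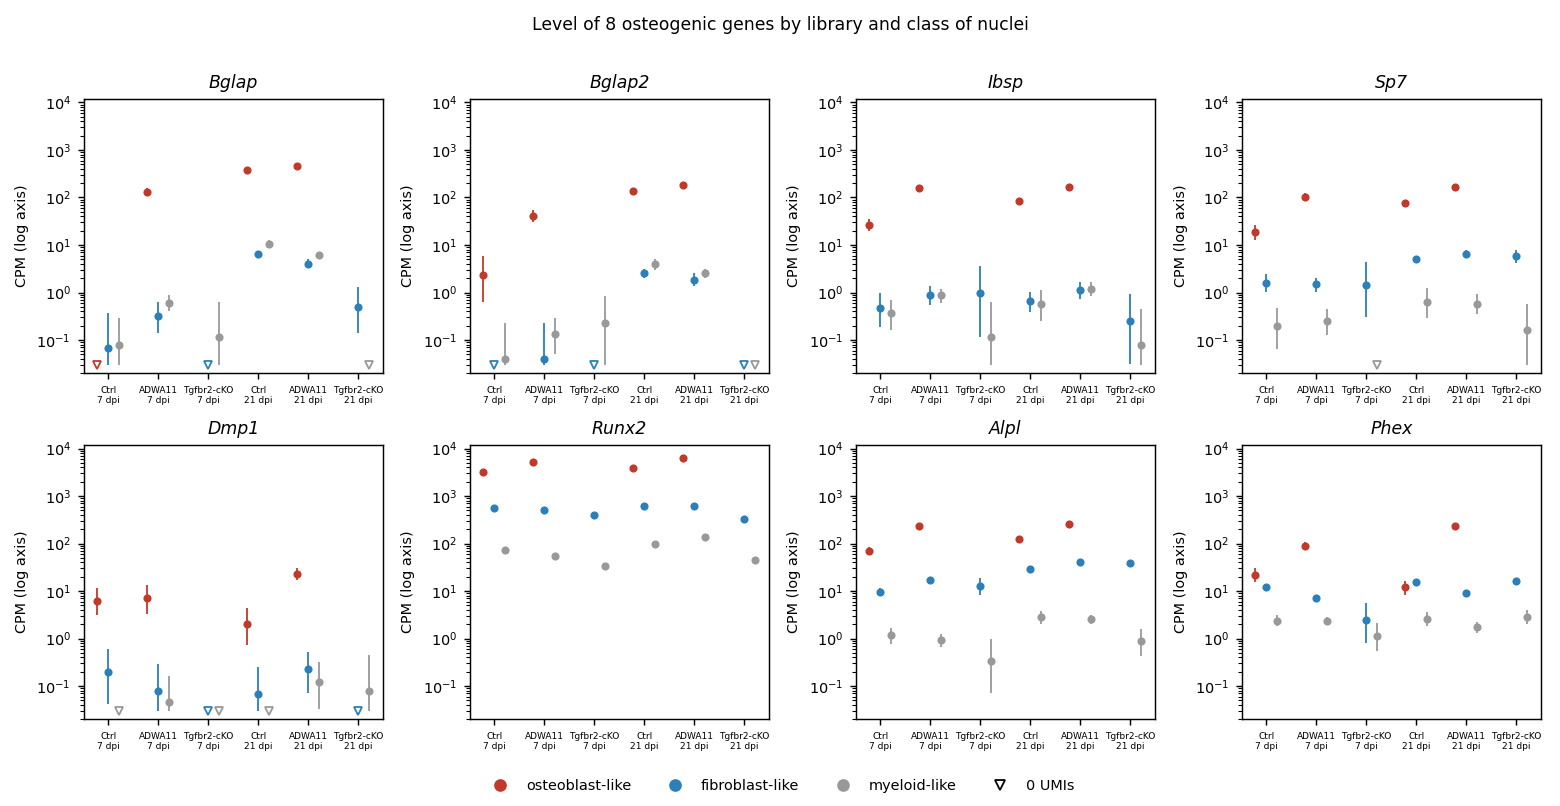
Levels of the 8 members (CPM, log axis, with Poisson 95% intervals) by library in osteoblast-like, fibroblast-like and myeloid-like nuclei, for classes of at least 20 nuclei; open triangles mark 0 UMIs. In osteoblast-like nuclei Bglap has no UMI in the Ctrl library at 7 dpi and stands at 134, 373 and 460 CPM in the other 3, while Runx2 stays between 3251 and 6425 CPM.

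The osteoblast-like class was not uniform. A UMI of at least 3 members was seen in 10.0% of its nuclei in Ctrl and 43.9% in ADWA11 at 7 dpi, and in 26.2% and 58.0% at 21 dpi. This compares with 1.66% of fibroblast-like and 0.0693% of myeloid-like nuclei over all libraries. Among the 241 nuclei with a Bglap UMI, 66.8% also had Sp7, against 22.1% of the 972 without, at similar depths (median 5978 and 6054 UMIs). For Ibsp the shares were 39.0% and 10.5%, and for Phex 18.7% and 3.5%. For Alpl they were 32.8% and 36.3%. These shares pool the libraries, which differ in all 4 genes.

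Clustering of log-normalised counts, looked at after the data were seen, gave 2 osteoblast-like sub-clusters. They held 1247 nuclei, of which 1116 were among the 1213 of the class, so the numbers below are of this clustering. The larger sub-cluster, of 1019 nuclei, had 27.1 CPM of Bglap, 33.8 of Ibsp, 51.1 of Sp7, 3.67 of Phex, 175 of Alpl and 4073 of Runx2. The smaller one, of 228 nuclei, had 1468 CPM of Bglap, 429 of Ibsp, 286 of Sp7, 452 of Phex, 118 of Alpl and 7052 of Runx2. Dmp1 (52.0 against 0.153 CPM) and Bglap2 (540 against 14.5) were also higher in the smaller one over all libraries. Alpl was lower there over all libraries and at 21 dpi (36.3 against 137 CPM in Ctrl, 70.7 against 349 in ADWA11), but not at 7 dpi (664 against 61.0 and 259.6 against 217.5 CPM). The smaller sub-cluster was 6 of the 213 nuclei of both in Ctrl at 7 dpi (2.82%, 1.04 to 6.03) and 49 of 142 in ADWA11 (34.5%, 26.7 to 42.9). At 21 dpi it was 60 of 510 in Ctrl (11.8%, 9.10 to 14.9) and 109 of 377 in ADWA11 (28.9%, 24.4 to 33.8). Within the larger sub-cluster alone, Sp7 was 15.8 CPM in Ctrl and 32.6 in ADWA11 at 7 dpi, and 41.4 and 118 at 21 dpi. Alpl there was higher in ADWA11 at both times, by the values just given. Ibsp was 57.7 and 35.7 CPM at 21 dpi. At 7 dpi it had 13 and 6 UMIs there, and Phex 10 and 6, then 5 and 3 at 21 dpi, too few to call a difference. Osteocalcin moved in opposite ways at 21 dpi. Bglap was 22.4 CPM in Ctrl and 78.2 in ADWA11 in the larger sub-cluster, and 2753 and 1323 CPM in the smaller. Bglap2 was 13.5 and 37.1 CPM, and 998.8 and 517 CPM. At 7 dpi the larger sub-cluster held 0 Bglap UMIs in Ctrl and 3 in ADWA11.

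Other genes of bone were read from lists of transcription factors, matrix and mineral genes, osteocyte genes, signal receptors and inhibitors, and suture or periosteal progenitor genes. Several of them served to name the class, so their level in it is a check of the label only. Against fibroblast-like nuclei, 9 of 12 transcription factors, 12 of 21 matrix and mineral genes, 4 of 8 osteocyte genes and 7 of 16 signal genes were at least 2-fold higher, and 0 of 8 progenitor genes. Of all 20946 genes with a UMI in both classes, 12.5% were. Smpd3, a sphingomyelinase needed for mineralisation, was at 442 against 2.38 CPM. The osteocyte products Sost, Mepe and Fgf23 had 0 UMIs in osteoblast-like nuclei, each allowing up to 0.362 CPM over the class.

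In ADWA11 against Ctrl osteoblast-like nuclei at 7 dpi, 15 of the 48 list genes with enough UMIs were 2-fold higher and 7 were lower (6.34% and 3.83% of all genes), with a median log2 ratio of 0.46 against 0.07 for all genes. The mineralisation gene Smpd3 (4.13), the collagen gene Col11a2 (3.36) and the Wnt inhibitor Wif1 (3.35) led. Ifitm5, an osteoblast membrane protein, followed at 3.25 (21 UMIs against 3, interval 1.51 to 5.64). The BMP receptor Bmpr1b (-3.08), the osteoclast factor Tnfsf11 (-2.69) and the Wnt inhibitor Sfrp4 (-2.07) were lower. At 21 dpi 15 of 54 were higher and 5 lower (4.32% and 4.49% of all genes), led by the bone morphogen Bmp2 (2.55), the Wnt effector Lef1 (2.15) and the transcription factor Dlx3 (1.97). From 7 to 21 dpi 17 of 53 were higher in Ctrl, among them Chad (3.69, with 45 UMIs against 2 and an interval of 1.76 to 6.78), Wif1 (2.98) and Col11a2 (2.81), and 5 were lower, where 10.6% and 3.8% of all genes were.

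In fibroblast-like nuclei the members divided into those near their level in myeloid-like nuclei and those above it. Where 3 values are given for a time below, they follow the order Ctrl, ADWA11, Tgfbr2-cKO. Myeloid-like nuclei were used for comparison, on the assumption that macrophages and microglia lack these genes. Free RNA was not measured. Bglap was at 0.0672, 0.322 and 0 CPM in fibroblast-like nuclei at 7 dpi, and at 6.54, 4.07 and 0.506 CPM at 21 dpi. In myeloid-like nuclei it was at 0.0804, 0.615, 0.114, 10.6, 6.10 and 0 CPM in the same order. The 21 dpi Ctrl and ADWA11 libraries thus had it in both other classes, and the myeloid-like level was the higher in each. It was detected in 4.43% of fibroblast-like and 4.39% of myeloid-like nuclei of the Ctrl 21 dpi library, at median depths of 7050 and 4225.5 UMIs. With nuclei of at least 3000 UMIs thinned to that depth these were 2.03% and 3.09%, and in the ADWA11 21 dpi library 1.39% and 1.73%. Shallower nuclei were left out, and the classes lost unequal parts. In the Ctrl 21 dpi library these were 290 of 3880 fibroblast-like and 879 of 3050 myeloid-like nuclei. Other classes held it as well. Over all thinned nuclei outside stroma the share at 21 dpi was 2.98% in Ctrl, 2.13% in ADWA11 and 0.0226% in Tgfbr2-cKO. In Ctrl it was 3.02% in astrocyte-like and 1.92% in endothelial-like nuclei, and 0% in mural-like ones. Bglap in fibroblast-like nuclei thus did not exceed its myeloid-like level in the Ctrl and ADWA11 libraries of 21 dpi, and the source of its UMIs there was not tested.

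Bglap2 also lay below its myeloid-like level in these libraries. It was at 2.55 and 1.88 CPM in fibroblast-like and 4.00 and 2.51 in myeloid-like nuclei of Ctrl and ADWA11 at 21 dpi. Ibsp lay between 0.253 and 1.12 CPM in fibroblast-like and between 0.0798 and 1.2 in myeloid-like nuclei over the 6 libraries. After thinning, the Ibsp share was higher in fibroblast-like nuclei in 5 of 6 libraries, with intervals that overlapped in each. Dmp1 had at most 5 UMIs in the fibroblast-like nuclei of any library.

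Sp7 was low in fibroblast-like nuclei but above its myeloid-like level. It stood at 1.61 CPM (1.03 to 2.40), 1.49 (1.05 to 2.05) and 1.47 (0.303 to 4.29) at 7 dpi, and at 5.06 (4.27 to 5.94), 6.57 (5.55 to 7.73) and 5.81 (4.26 to 7.75) at 21 dpi. The myeloid-like values were 0.201, 0.251, 0, 0.643, 0.583 and 0.160 CPM. Thinned to 3000 UMIs, Sp7 was detected in 1.17%, 2.18% and 1.19% of fibroblast-like nuclei at 21 dpi, against 0.0921%, 0.183% and 0.112% of myeloid-like ones. At 21 dpi the CPM intervals of the 3 groups overlapped, while those of the thinned shares did not for Ctrl (0.844 to 1.58) and ADWA11 (1.66 to 2.81). Other classes carried Sp7 at a like level. Over all libraries it was at 6.08 CPM (60 UMIs in 1804 nuclei) in oligodendrocyte-like and 6.09 CPM (17 UMIs in 512 nuclei) in mural-like nuclei, against 4.00 CPM in fibroblast-like ones.

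Alpl in fibroblast-like nuclei also lay above its myeloid-like level. It was at 9.61 CPM (8.10 to 11.3), 17.0 (15.4 to 18.7) and 12.7 (8.31 to 18.6) at 7 dpi, and at 29.6 (27.6 to 31.6), 41.3 (38.7 to 44.1) and 39.7 (35.4 to 44.3) at 21 dpi. Myeloid-like nuclei had 0.343 to 2.86 CPM. After thinning, 6.32%, 8.94% and 5.72% of fibroblast-like nuclei had Alpl at 21 dpi, against 0.783%, 0.672% and 0.224% of myeloid-like ones. Endothelial-like nuclei came near, at 3.37%, 6.92% and 4.71%, and mural-like ones had 4.21%, 4.48% and 1.89%. The endothelial-like interval overlapped the fibroblast-like one in each group, in Ctrl only just.

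Runx2 was detected in 59.9% to 84.5% of fibroblast-like nuclei. It stood at 552 CPM (540 to 564), 521 (512 to 530) and 397 (370 to 425) at 7 dpi and at 619 (610 to 628), 613 (603 to 623) and 331 (319 to 344) at 21 dpi. The Tgfbr2-cKO library was the lowest of its time on both occasions, by 0.48 and 0.90 on the log2 scale, short of 2-fold. Myeloid-like nuclei had 33.1 to 137 CPM, also lowest in Tgfbr2-cKO at each time, and T or NK cell-like nuclei 473 CPM over all libraries. Phex stood at 12.3, 7.21 and 2.44 CPM at 7 dpi and 15.2, 9.03 and 15.9 at 21 dpi, where 59.5% of the last came from 5 nuclei. The myeloid-like values were 1.14 to 2.87 CPM. Other classes also carried Phex. After thinning it was detected in 2.26% of fibroblast-like, 2.75% of astrocyte-like and 4.39% of oligodendrocyte precursor-like nuclei of Tgfbr2-cKO at 21 dpi. In Ctrl at that time the shares were 3.23%, 1.23% and 2.01%.

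**Figure D3:**
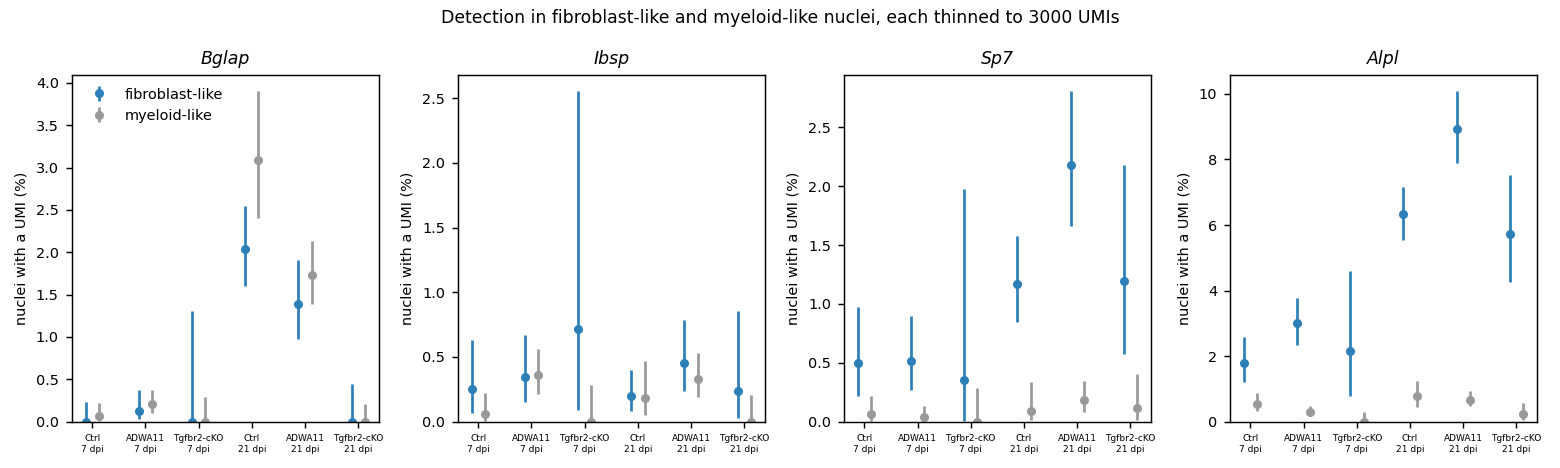
Percentage of nuclei with at least 1 UMI of Bglap, Ibsp, Sp7 and Alpl after thinning to 3000 UMIs (y axis), by library, in fibroblast-like and myeloid-like nuclei, with Clopper-Pearson 95% intervals. Shallower nuclei are left out. The Bglap share is higher in myeloid-like than in fibroblast-like nuclei of the 21 dpi Ctrl and ADWA11 libraries (3.09% against 2.03%, 1.73% against 1.39%), while Sp7 and Alpl lie higher in fibroblast-like nuclei.

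Among fibroblast subtypes the members did not share 1 place. Runx2 was at 194 CPM in arachnoid-like and 238 in leptomeningeal-like nuclei, at 681 in the 2542 myofibroblast-like nuclei (named from contractile and scar markers), and at 849 in proliferating-like nuclei. Unnamed sub-cluster 5 had 880 CPM of Runx2 in Ctrl at 21 dpi, the library that gave 994 of its 1048 nuclei. It held 0 Tgfbr2-cKO nuclei, and its part in the Runx2 ratios was not tested. The largest subtype, unnamed sub-cluster 0 with 4303 nuclei, mostly of Ctrl and ADWA11 at 21 dpi, had 628 CPM. It held the highest Alpl of any fibroblast subtype, 51.5 CPM with 19.1% of nuclei detected. Alpl there was 114 and 123 CPM at 7 dpi and 49.9 and 47.1 at 21 dpi in Ctrl and ADWA11, and 66.3 in Tgfbr2-cKO at 21 dpi. In myofibroblast-like nuclei Alpl was 10.9 CPM and Sp7 1.5 CPM. The 75 leptomeningeal-like nuclei of the Tgfbr2-cKO 21 dpi library stood out with 162 CPM of Alpl and 173 CPM of Phex, but 5 nuclei held 87.8% of the Alpl and 5 held 84.1% of the Phex UMIs.

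The highest fibroblast level of Sp7 was in sub-cluster 7, also unnamed, with 316 nuclei of which 300 came from the Tgfbr2-cKO 21 dpi library. It had 12.7 CPM of Sp7 with 9.49% of nuclei detected, 49.5 CPM of Alpl and 507 CPM of Runx2. It raised the osteoblast markers Ifitm5, Vdr and Tnfsf11, but its leading genes were Gabrg3, Ebf3 and Lingo2. These 3 markers would have named it osteoblast-like without the 40% limit on stromal sub-clusters, set after they had been seen. In the Tgfbr2-cKO 21 dpi library it held 43 of the 46 Sp7 UMIs of all fibroblast-like nuclei. Its 300 nuclei there had 2 Bglap UMIs and none of Ibsp. A cluster that comes mostly from 1 library may be that library and not a type. Both Sp7 and at least 1 of Bglap, Bglap2 and Ibsp were seen in 22 of 11900 fibroblast-like nuclei and in 234 of 1213 osteoblast-like ones.

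**Figure D4:**
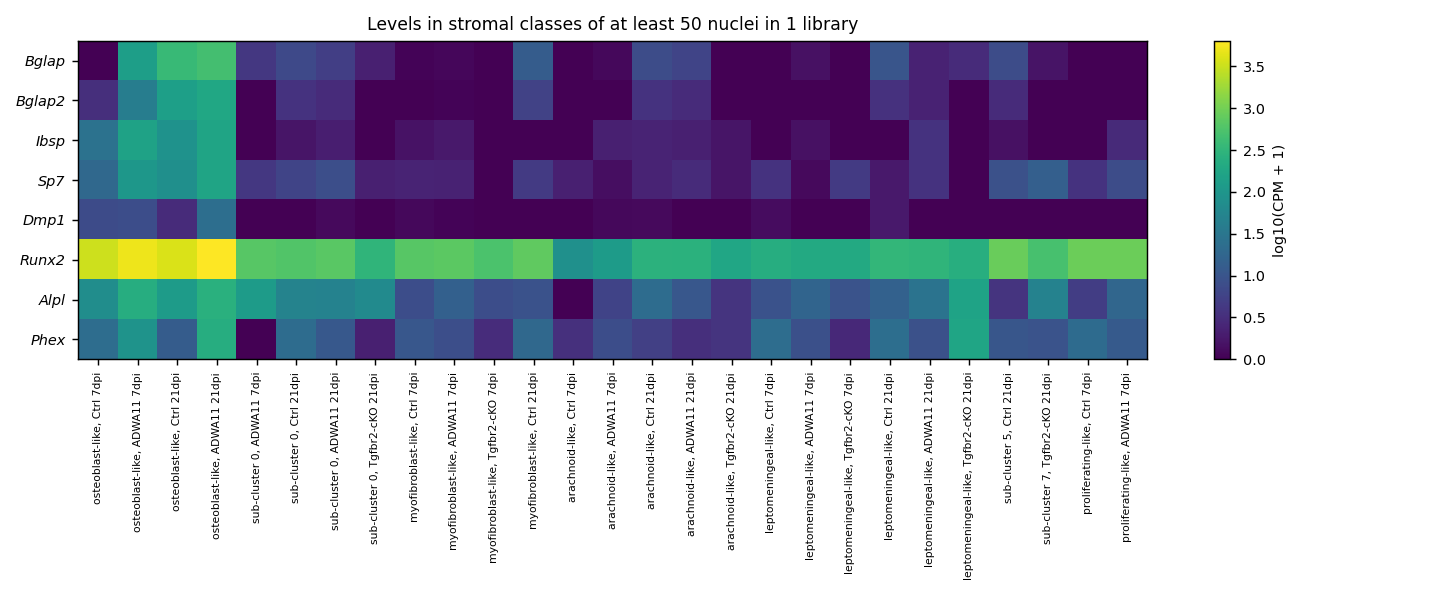
Levels of the 8 members, as log10(CPM + 1), in each stromal class of each library with at least 50 nuclei (27 columns, the osteoblast-like ones on the left; 1 row per gene). The osteoblast-like columns hold the highest Runx2, Sp7 and Ibsp, while Alpl and Runx2 reach into the fibroblast subtypes.

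The same members were then compared between groups in fibroblast-like nuclei. In ADWA11 against Ctrl, 0 of 5 members with enough UMIs passed 2-fold at 7 dpi in either direction (6.91% of genes higher, 3% lower), and 0 of 7 at 21 dpi (4.29% and 3.84%). The log2 ratio of Runx2 was -0.08 and -0.01, and that of Alpl 0.82 and 0.48. Sub-cluster 5, with 2.73 CPM of Alpl in Ctrl at 21 dpi, held 994 nuclei of Ctrl and 20 of ADWA11 then, and its part in the Alpl ratio was not tested. In Tgfbr2-cKO against Ctrl at 7 dpi, 1 of 4 members was lower, Phex by 2.33 (5 UMIs against 183), where 4.69% of genes were, and none higher against 8.44%. At 21 dpi 3 of 7 were lower against 7.95% of genes, and none higher against 9.48%. They were Bglap (-3.69), Bglap2 (at most 0.149-fold) and Ibsp (-1.37, interval -4.52 to 0.68), all genes with levels near those of myeloid-like nuclei. Alpl (0.43) and Sp7 (0.20) did not pass. The nuclei compared lay in different sub-clusters, mostly in sub-clusters 0 (1889) and 5 (994) in Ctrl and in the arachnoid-like (417) and sub-cluster 7 (300) in Tgfbr2-cKO, and within subtypes Alpl differed both ways. It was 2.79 CPM in Tgfbr2-cKO and 21.5 in Ctrl within arachnoid-like nuclei, 66.3 and 49.9 within sub-cluster 0, and 162 and 14.1 within leptomeningeal-like nuclei. From 7 to 21 dpi 4 of 7 were higher in Ctrl and 4 of 7 in ADWA11, against 14.3% and 11.9% of genes, and none lower against 6.98% and 8.81%. Of the members above their myeloid-like level these were Sp7 (1.65 and 2.14) and Alpl (1.62 and 1.28). The nuclei of the 2 times lay in different subtypes, in Ctrl 1074 myofibroblast-like and 46 of sub-cluster 0 at 7 dpi against 91 and 1889 at 21 dpi. Alpl went different ways within subtypes. It was lower at 21 than at 7 dpi within sub-cluster 0 in both groups, by the values above, with only 46 Ctrl and 96 ADWA11 nuclei at 7 dpi. It was higher at 21 dpi within arachnoid-like nuclei (0 to 21.5 CPM in Ctrl, 4.91 to 9.92 in ADWA11) and within leptomeningeal-like nuclei (8.16 to 14.1 and 15.8 to 27.1 CPM).

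Taken over all stroma, which does not rest on the border between osteoblast-like and fibroblast-like nuclei, the osteocalcin genes and Ibsp were nearly absent from the Tgfbr2-cKO library at 21 dpi. Bglap had 8 UMIs against 1317 in Ctrl, a log2 ratio of -5.35 (-6.56 to -4.36). Bglap2 had 0 against 496 UMIs, at most 0.0245-fold, and Ibsp 3 against 280, a log2 ratio of -4.53 (-6.81 to -2.97). Runx2 was lower by 1.44. Sp7 (-0.98, with -0.24 in female and -1.62 in male mice), Alpl (0.05) and Phex (0.09) did not pass 2-fold. With unnamed cluster 3 added to stroma, Bglap was at -5.37, Ibsp at -4.48, Runx2 at -1.40 and Sp7 at -0.89. Without it, that was 4 of 7 members lower where 8.47% of genes were, and none higher where 9.33% were. The median of the members was -1.44 and that of all genes -0.01. Osteoblast-like nuclei were 10.9% of the Ctrl and 0.340% of the Tgfbr2-cKO stroma at this time, and the part of that share in these ratios was not tested.

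At 7 dpi 1 of 5 members was lower in Tgfbr2-cKO stroma, Phex (5 against 221 UMIs, -2.46), where 5.06% of genes were, and 0 of 5 higher where 8.75% were. Runx2 was lower by 0.95, and by 1.11 with TMM scaling, which made 2 of 5 called against 6.54% of genes. Ibsp (-0.40), Alpl (-0.25) and Sp7 (0.00) did not pass. Since Bglap had 1 UMI in the whole Ctrl stroma at 7 dpi, no fall of osteocalcin could have been seen then.

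For ADWA11 against Ctrl, stroma at 7 dpi had 3 of 8 members higher where 7.2% of genes were, Bglap by 6.83 (179 against 1 UMI, interval 4.34 to 12.1), Bglap2 by 3.08 and Ibsp by 1.41. At 21 dpi it had 1 of 8 where 4.32% were, Dmp1 by 3.19. Between 7 and 21 dpi 5 of 8 were higher in Ctrl against 14.3% of genes, and 6 of 8 in ADWA11 against 12%, with none lower against 8.09%. Dmp1 was lower in Ctrl, where 6.47% of genes were, but was higher by 1.88 in the male mice alone.

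**Figure D5:**
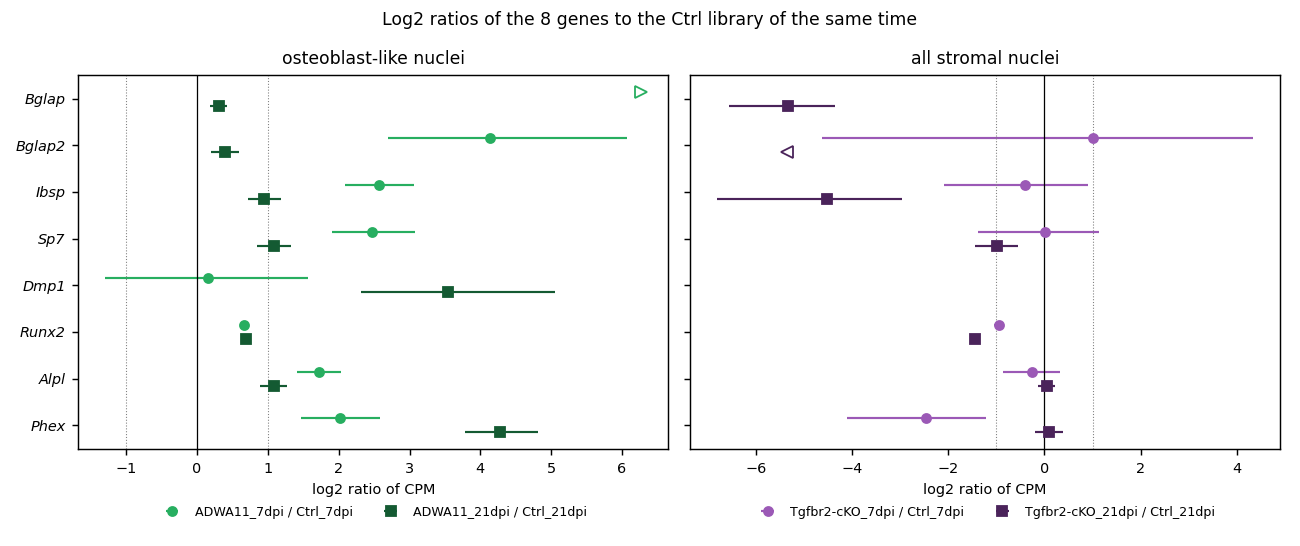
Log2 ratios to Ctrl of the same time (x axis) for the 8 members (y axis) with 95% counting intervals: ADWA11 in osteoblast-like nuclei on the left and Tgfbr2-cKO in all stroma on the right, with open triangles for bounds and dotted lines at 2-fold. In the left panel 6 members lie beyond the upper dotted line at 7 dpi and 4 at 21 dpi, and in the right panel Bglap, Bglap2, Ibsp and Runx2 lie beyond the lower one at 21 dpi.

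The wider lists moved with the members in part at 21 dpi. At 7 dpi 9 of 50 list genes were higher in Tgfbr2-cKO than in Ctrl stroma, among them Wif1, Cdh13 and Smpd3, and 5 lower, where 8.75% and 5.06% of all genes were. In Tgfbr2-cKO against Ctrl stroma at 21 dpi, 11 of 19 matrix and mineral genes were at least 2-fold lower and none higher (8.47% and 9.33% of all genes), with a median of -1.70 against -0.01 for all genes. The lowest were Chad (-3.63), Col11a2 (-2.92), Col1a1 (-2.89) and Mgp (-2.88), of which Chad and Mgp belong to cartilage and soft tissue matrix and Col1a1 also to scar. Of the transcription factors, 3 of 11 were lower, against the same 8.47%, among them Dlx5 (-1.62) and Dlx6 (-1.26, with 3 UMIs against 29 and an interval of -3.61 to 0.43). Tnfsf11 (2.52), the BMP inhibitor Grem1 (3.602) and Cdh13 (1.93) were higher. In the fibroblast-like nuclei alone, 9 of 18 matrix and mineral genes were lower, with a median of -0.74, and 2 were higher, where 7.95% and 9.48% of all genes were. Col1a1, Col1a2, Col11a2, Chad and Mgp were among those lower in both settings. Over all lists 11 of 54 genes were higher in the Tgfbr2-cKO fibroblast-like nuclei and 12 lower, against 9.48% and 7.95% of all genes. Among the higher were the collagen gene Col24a1 (2.91), the cytokine receptor gene Lifr (1.78), the vitamin D receptor gene Vdr (1.62) and Smpd3 (1.28). The share of sub-cluster 7 in those was not tested.

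The targeted receptor could hardly be checked here. Tgfbr2 stood at 312, 243 and 230 CPM in fibroblast-like nuclei at 7 dpi and at 220, 191 and 185 CPM at 21 dpi. UMIs from outside the floxed exon are still counted after recombination, so these levels check little. Col1a2, the gene whose promoter drives the Cre, had a UMI in 99.8% of osteoblast-like nuclei.

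Other tissues of the skull were looked for with lists of their genes. Nuclei with 3 or more genes of the list numbered 0 to 1 per library for skeletal muscle, 0 for megakaryocytes and immature B cells, and 0 to 4 for marrow progenitors. Elane, Ctsg, Rag1, Ppbp, Klf1, Acta1 and Myh4 each had 0 UMIs in at least 1 library. Their lists were not absent, and Acta1 had 435 UMIs in Tgfbr2-cKO at 7 dpi. The muscle list summed to 1.77, 9.78 and 16.3 CPM at 7 dpi and to 3.45, 6.38 and 7.08 CPM at 21 dpi. The marrow list, mostly Kit, summed to 48.3, 67.6 and 16.1 CPM, then to 38.4, 26.8 and 37.2 CPM. Chondrocyte genes were found together in 3 to 19 nuclei per library and erythroid genes in 1 to 46, the most in ADWA11 at 7 dpi. The erythroid list summed to 34.4 and 34.6 CPM in the ADWA11 libraries and to 5.07 to 11.9 CPM in the other 4. The chondrocyte list summed to 36.5, 20.9 and 14.1 CPM at 7 dpi and to 43.8, 21.6 and 33.5 CPM at 21 dpi. At 21 dpi 20.9 CPM of the Tgfbr2-cKO sum were Sox9, which astrocytes also express. Without Sox9 the sums were 32.7, 16.5 and 10.8 CPM, then 30.02, 14.9 and 12.5 CPM. Single genes differed, as Acan (15.0, 4.57 and 2.23 CPM) was lowest in Tgfbr2-cKO at 21 dpi while Col9a1 (4.37, 1.57 and 5.96 CPM) was highest there. Col2a1 (15, 12 and 22 UMIs) and Matn1 (4, 4 and 7 UMIs) also had their highest CPM there, but at few counts. The part of these tissues in the results was not tested. Osteoclast genes, which cells of the macrophage line also express, summed to 261, 614 and 25.1 CPM at 7 dpi and 317, 1262 and 184 CPM at 21 dpi, most of it from Atp6v0d2. The ADWA11 excess over Ctrl at 7 dpi was in Atp6v0d2 alone (585 against 225 CPM). Every other gene of the list was then lower in ADWA11, among them Ctsk (15.4 against 17.4 CPM) and Acp5 (10.7 against 12.2 CPM). By 21 dpi every gene of the list was higher in ADWA11 than in Ctrl. Nuclei with 3 or more of these genes numbered 41, 58 and 2 at the earlier time and 38, 233 and 14 at the later one. Those of the earlier time were out of 8193, 10810 and 10587 nuclei kept. The fusion gene Dcstamp alone was at 1.91, 0.756 and 0.141 CPM at 7 dpi and 0.719, 3.25 and 0.283 CPM at 21 dpi. Oscar, Calcr and Mmp9 were higher in Tgfbr2-cKO than in Ctrl at 21 dpi (1.34 against 0.514, 0.566 against 0.264 and 4.64 against 2.00 CPM).

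Genes outside the members and the bone gene lists were ranked by how like the mean of the members their levels were. The measure was Pearson correlation of log2(CPM + 1) over the 27 stromal classes of single libraries. Highest among these genes were Lipc (r = 0.93), Gm10629, BC055402, Cgref1, Adgrd1, Wnt10b, Insc, Panx3, Bmp8a and Sema4d (0.89). The stromal classes share libraries and depth, so the correlations describe and test nothing. Among the members, Bglap2 (0.94) and Ibsp (0.92) were closest to their mean and Phex (0.66) and Alpl (0.73) farthest. Each member is itself part of that mean. In osteoblast-like and fibroblast-like nuclei Lipc was at 146 and 0.633 CPM, and Panx3 at 32.5 and 0.208 CPM.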

How the data were processed

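Nuclei of 6 libraries (7 and 21 dpi) were sorted on DAPI and sequenced on the 10x Genomics droplet system. The authors aligned reads to mm10 with Cell Ranger (7.2.0 in the file headers, 7.1.0 in the submitters' processing notes) and deposited whole-number UMI counts per gene and barcode for 67360 barcodes.

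From these counts, barcodes in the lowest or highest 2.5 percentiles of UMIs or genes, or the highest for mitochondrial share, were left out per library. Doublets were marked by simulation, and a stromal sub-cluster with over 50% marked (586 nuclei) was removed. SCTransform and Louvain clustering (Seurat 5.3.0, 30 components, 3000 genes, resolutions 0.5 and 0.2 for stroma) gave clusters. A cluster was named where at least 3 markers of a list were raised, and more than of any other list. Stromal sub-clusters also needed 40% of the list raised, a limit set after they had been seen and used in every clustering. UMIs were summed per library and class, and CPM are UMIs per 1000000 non-mitochondrial UMIs of the class. Levels have Poisson, shares Clopper-Pearson and ratios conditional binomial 95% intervals. A difference was called at 2-fold with 20 or more UMIs over both libraries. A count of 0 was set at 3 counts for bounds. For detection, nuclei of at least 3000 non-mitochondrial UMIs were thinned to that depth, and shallower ones were left out. The calculations were tested on simulated data. TMM used edgeR 4.0.16.

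The members and lists were chosen with earlier results of these data known. Named genes were the members, at most 4 genes a list past 2-fold in a comparison, and the 10 most like the members; single genes beyond these were chosen after their values were seen. Alternatives covered clustering, filter, doublets, scaling, denominators, single mice and the richest nuclei. One list gene is not reported here by name.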

Additional observations from a re-analysis of the deposited data

Results flagged for a closer look

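Runx2 in stroma moved in opposite directions in ADWA11 against Ctrl at the 2 times, by a log2 ratio of -0.16 at 7 dpi and 0.28 at 21 dpi. The difference between the times was not tested, since each is 1 library. By mouse the ratio was 0.03 in female and -0.61 in male mice at 7 dpi, and 0.84 and -0.29 at 21 dpi.

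Barcodes left out by the quality filter, which no comparison uses, also held bone transcripts. Bglap, Bglap2, Ibsp and Sp7 together came to 5.59 CPM (4.37 to 7.05) in the left-out barcodes of ADWA11 at 7 dpi, against 1.32 CPM (0.684 to 2.31) in those of Ctrl.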

How the results depend on the processing

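No paired analysis was possible because each group is 1 library, and no replicate could be left out for the same reason; single mice were compared in place of this. Of 391 alternative values for members in stroma, 292 stayed within the interval of the reported value, 98 moved and 1 reversed, Dmp1 in Ctrl from 7 to 21 dpi with 1.88 in male nuclei. A value was counted as reversed only where its sign changed and the reported ratio was at least 2-fold. Changes of sign in smaller ratios, such as those of Runx2 by mouse above, were not counted as reversed. In fibroblast-like nuclei 276 of 339 stayed and 63 moved, and in osteoblast-like nuclei 186 of 269 stayed and 83 moved; detection after thinning moved in 52 of 80 and levels in 57 of 192. The alternative clusterings shared 92.0% to 97.9% of the osteoblast-like nuclei.

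The log2 ratio of the osteoblast-like share for Tgfbr2-cKO against Ctrl at 7 dpi was -4.40 without neurons, astrocytes and oligodendrocytes, -3.08 over stromal nuclei, -8.16 in female and -3.74 in male nuclei. Counting nuclei with 2 osteoblast markers outside the members gave 1.66 at 7 dpi and 0.041 at 21 dpi, both reversed, and -3.26 and -1.33 within stroma, an alternative chosen after seeing the data. For ADWA11 against Ctrl the 2-marker count gave 0.094 at 7 dpi, 0.069 within stroma, and -0.024 within stroma at 21 dpi; male nuclei gave -0.47 and -1.39, female nuclei 0.76 at 21 dpi, stromal nuclei 0.13 and a filter pooled over libraries -0.54. From 7 to 21 dpi the Ctrl ratio was -0.012 over stromal nuclei, -0.71 in female and 2.36 in male nuclei, and 0.79 both with osteogenic genes kept in the clustering and with the pooled filter. In ADWA11 it was 0.10 and 0.20 by the 2-marker counts and 1.44 in male nuclei. With unnamed cluster 3 added to stroma as the denominator, also chosen after seeing the data, the Tgfbr2-cKO ratio was -3.21 at 7 dpi and -4.69 at 21 dpi, the ADWA11 ratio 0.54 at 21 dpi and the Ctrl ratio in time -0.31; of 47 member ratios in stroma 45 then stayed and 2 moved. The cause of these shifts was not tested.

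With no minimum of UMIs, 1 member was called higher in Tgfbr2-cKO stroma and fibroblast-like nuclei at 7 dpi, 1 in ADWA11 fibroblast-like nuclei at 7 dpi and 1 at 21 dpi, and 1 lower in Ctrl osteoblast-like nuclei from 7 to 21 dpi. At 1.5-fold, stroma had 2 members lower in Tgfbr2-cKO at 7 dpi, 5 higher and 1 lower in ADWA11 at 7 dpi and 5 higher at 21 dpi. Fibroblast-like nuclei then had 2 higher and 1 lower in ADWA11 at 7 dpi and 1 higher and 2 lower at 21 dpi, and Ctrl osteoblast-like nuclei 1 lower with time. TMM scaling called 2 lower in Tgfbr2-cKO and 1 lower in ADWA11 stroma at 7 dpi, and a minimum of 50 UMIs called 0 lower in Ctrl stroma with time. With a pseudocount of 10, 4 of the 10 genes most like the members were shared.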

Other observations

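At 21 dpi the barcodes left out by the quality filter of the Ctrl library held more of the 4 genes Bglap, Bglap2, Ibsp and Sp7 than the kept nuclei did, at 129 against 48.5 CPM. Bglap alone had 1059 UMIs in 1163 left-out barcodes and 1830 in 12937 kept nuclei. In the ADWA11 library of that time the values were 40.9 and 44.8 CPM, and in Tgfbr2-cKO 0.539 and 2.19 CPM.

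In the osteoblast-like nuclei from 7 to 21 dpi in ADWA11, 16 of 50 list genes were higher and 4 lower, where 7.93% and 4.32% of all genes were. Sfrp4 (2.65), Bmp2 (2.64) and Lifr (2.18) led, and Vdr was higher by 2.10, from 43.0 to 184 CPM.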
